A study of Rattus norvegicus with 4 samples.

Results

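The comparison was of astrocytes that had grown under neurons with astrocytes that had grown alone, both after a cold jet, a stream of ice-cold phosphate buffered saline that washes neurons off the astrocyte layer. It was measured on 2 of the 4 arrays of the series. These are the arrays on which Cy3 marked the RNA of co-cultures given the jet (CC-CJ) and Cy5 that of astrocytes alone given the jet (AA-CJ). All 41012 non-control probes of the rat array were considered, and 24881 of them entered the test. On the other 2 arrays CC-CJ in Cy3 was hybridised with the whole co-culture without cold jet (CC) in Cy5. These were used to find RNA that the jet lowered, and their values are given beside named genes. They also entered the fit of all 4 arrays, from which the spread of each gene was estimated. In every group the astrocytes came from the cortex of Wistar rat pups at postnatal day 1. In CC-CJ and CC, neurons from the hippocampi of mouse embryos at embryonic day 18 were plated on the astrocyte layer, and AA-CJ was kept in like conditions without neurons. CC-CJ can thus hold neurons that the jet left behind. The rat probes can also bind mouse RNA of like sequence, and can miss mouse RNA whose sequence differs. Replicates came from different pools of animals, according to the methods of the study. The question was which astrocyte genes differ after contact with maturing neurons.

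Astrocytes surround synapses, take up transmitter, supply neurons with lipids and lactate and secrete proteins that act on synapse formation. In culture they divide and take on part of the state of reactive astrocytes, with raised cytoskeletal, complement and acute phase genes. Cultures from the newborn cortex can also hold microglia, ependymal cells, which bear motile cilia, and cells of vessels, so a change in such genes in RNA of a whole layer can come from other cells. Fewer cells of a type and less RNA per cell cannot be told apart in these samples.

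The difference is given as M, the log2 ratio of Cy3 over Cy5 after background correction and loess normalization, so that a positive M is a higher level in CC-CJ. Levels are normalized intensities of each RNA in arbitrary units that depend on the probe, so a sum of levels over a list or an order by level is one of intensity and not of RNA amount. A gene passed where the adjusted p (limma, Benjamini-Hochberg over all genes tested) was under 0.05. Without a dye swap, dye and condition cannot be told apart. CC-CJ was in Cy3 on the 2 arrays against CC as well, and the M of those arrays is given for a part of the named genes. With 2 arrays per comparison the precision of each value is limited.

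Of the 24881 probes tested, 514 were higher in CC-CJ (2.07%) and 283 were lower (1.14%). Averaged over the probes of a gene, 21328 genes were tested, of which 399 were higher (1.87%) and 242 were lower (1.13%). The counts of each gene list below are to be set beside these shares of all genes. Every gene that passed had the same sign on both arrays. The genes that rose moved further than those that fell. The median M of the higher genes was 0.65, or 1.57-fold, and that of the lower genes was -0.56, or 1.47-fold. Among the higher genes 60 changed at least 2-fold and 11 at least 4-fold, against 14 and 0 of the lower genes. Changes of at most 1.5-fold made up 153 of the higher and 139 of the lower genes. For 33 of the higher genes neither array gave an AA-CJ signal well above background, and where such a gene is named its fold is given as a lower bound. With these genes at their bounds the counts of at least 2-fold and 4-fold were again 60 and 11. None of the lower genes was so dim in CC-CJ.

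The 2 arrays were close in centre and spread. The median M of all genes was -0.02, and the SD of M over the 24881 probes was 0.285 on replicate 1 and 0.255 on replicate 2. Pearson's r between the arrays was 0.556 across genes, which are not independent replicates. The median difference between the arrays in a gene's M was 0.143. The higher genes had a median M of 0.70 on replicate 1 and 0.60 on replicate 2, and 255 of the 399 were farther from 0 on replicate 1. The lower genes had a median of -0.55 and -0.56. Of the 80 genes and features named here for their change, 35 passed with either array of the pair left out, 22 passed only while replicate 1 was in the fit, 2 only while replicate 2 was in it, and 21 only with both. A fit without 1 of the pair leaves 1 array of CC-CJ against AA-CJ, whose spread is taken to be that of the arrays against CC, so passing there is no separate replicate check. Of the same 80, 55 did not pass with Agilent's processed log ratio, 13 with an offset of 16 and 7 with no background correction. With the processed values of the authors 4 did not pass, and with the brightest probe of a gene 3. Under median centring 10 did not pass in either direction. There only 59 of the 80 passed in the direction given here, as some passed in the other direction.

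**Figure D1:**
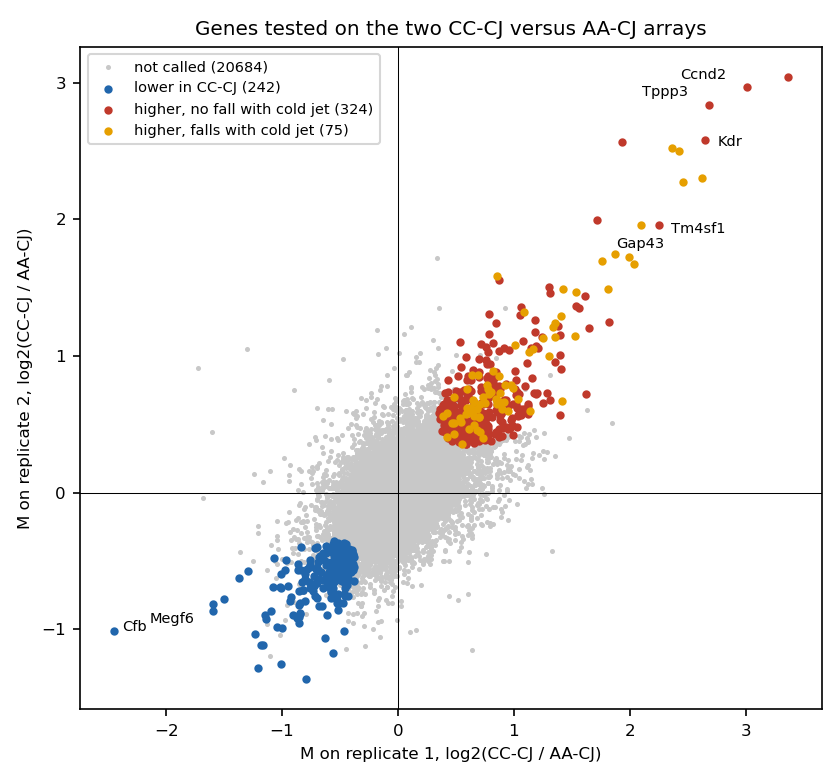
M (log2 of CC-CJ over AA-CJ) of each tested gene on replicate 1 (horizontal axis) and replicate 2 (vertical axis), with the 242 lower genes in blue and the 399 higher genes in red or, for the 75 that fell with the jet, orange. The called genes lie to the upper right and lower left of the others, and Cfb lies farther from 0 on replicate 1 (-2.45) than on replicate 2 (-1.01).

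The arrays against CC were used to split the higher genes by whether they fell with the jet. In CC-CJ against CC, 477 of the 21328 genes fell (2.24%). Of the 399 higher genes 75 were among them, and 324 were not. Their median M against CC was -0.92 for the 75 genes and -0.01 for the 324, a difference that follows from the split on these same values. Their median M against AA-CJ was alike at 0.77 and 0.63. Not passing on the arrays against CC does not show that a gene was unmoved there. Of all 399 higher genes, 204 were below 0 on both arrays against CC and 120 were above 0 on both. Of the 242 lower genes 22 also fell with the jet, 172 were below 0 on both arrays against CC and 12 were above 0 on both. CC-CJ is the numerator of both ratios, and M of the 2 comparisons is therefore set side by side and not related by a test.

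**Figure D2:**
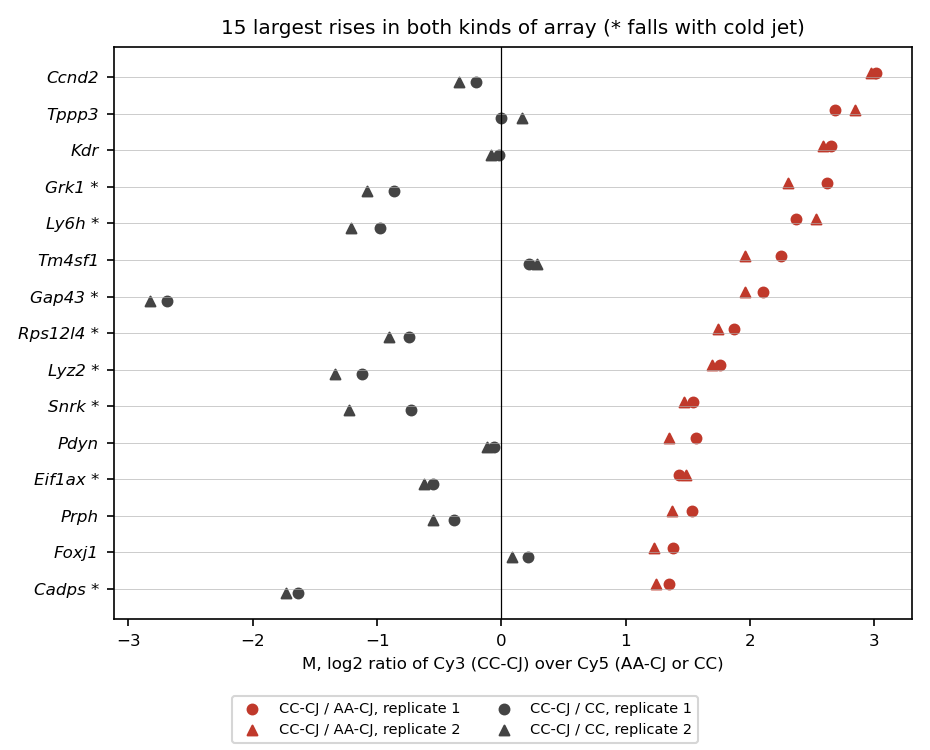
M (log2 ratio of Cy3 over Cy5, horizontal axis) on each array for the 15 named genes that rose most, with CC-CJ over AA-CJ in red, CC-CJ over CC in grey, and a star at genes that fell with the jet (Lyz2 and Pdyn were not well above background in AA-CJ, and their fold is given in the text only as a bound). The grey points of Gap43 lie far to the left (mean -2.76), whereas the means of Ccnd2, Tppp3, Kdr, Tm4sf1, Pdyn and Foxj1 lie between -0.27 and 0.25.

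The 3 largest rises with a gene symbol, those of Ccnd2, Tppp3 and Kdr, were in genes that did not fall with the jet. Ccnd2, a D-type cyclin that drives cells from G1 into S phase, had levels of 3820 and 4169 in CC-CJ and of 474 and 532 in AA-CJ. Both CC-CJ levels lay far above both AA-CJ levels, a 7.94-fold difference (M 2.99, SE 0.08, limma adjusted p = 0.000140). Tppp3, a tubulin-binding protein found in ciliated cells, had levels of 2292 and 2580 against 357 and 360, which is 6.78-fold (M 2.76, SE 0.09). Kdr, the main signalling receptor for VEGF, had levels of 538 and 550 against 85.8 and 91.7, which is 6.13-fold (M 2.62, SE 0.08). Tm4sf1, a membrane protein of the tetraspanin-like family, had 2028 and 1876 against 427 and 482, which is 4.30-fold (M 2.10, SE 0.10, adjusted p = 0.000404). The levels of these 4 genes did not overlap between the groups. Of all 21328 genes, 4620 (21.7%) had both CC-CJ levels above both AA-CJ levels, and 5764 (27.0%) had both below, so a lack of overlap is common among 2 arrays. Against CC their M was -0.27 for Ccnd2, 0.08 for Tppp3, -0.05 for Kdr and 0.25 for Tm4sf1, and each passed with either array left out. On the rn4 genome named in the files, the Tppp3 probe lies on chromosome 19 from 35284040 to 35284099 and the Tm4sf1 probe on chromosome 2 from 146521938 to 146521997, both on the minus strand. Whether these positions are in coding sequence was not looked up, and the files give no position for the probes of Kdr and Foxj1.

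Other rises without a fall in the jet were those of Pdyn, Prph and Pcdh10. Pdyn, which encodes the precursor of the dynorphin opioid peptides, had levels of 171 and 152 in CC-CJ and of 57.8 and 59.5 in AA-CJ, where it was not well above background, so the difference was at least 2.49-fold (adjusted p = 0.00140). Prph, the intermediate filament peripherin, had 416 and 461 against 143 and 178 (M 1.45, SE 0.09). Its M against CC was -0.47, with an adjusted p of 0.0594. Pcdh10, a protocadherin, had 225 and 216 against 94.9 and 97.9 (M 1.19, SE 0.08, adjusted p = 0.00243), with -0.23 against CC. The levels of these 3 genes did not overlap between the groups, and each passed with either array left out.

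**Figure D3:**
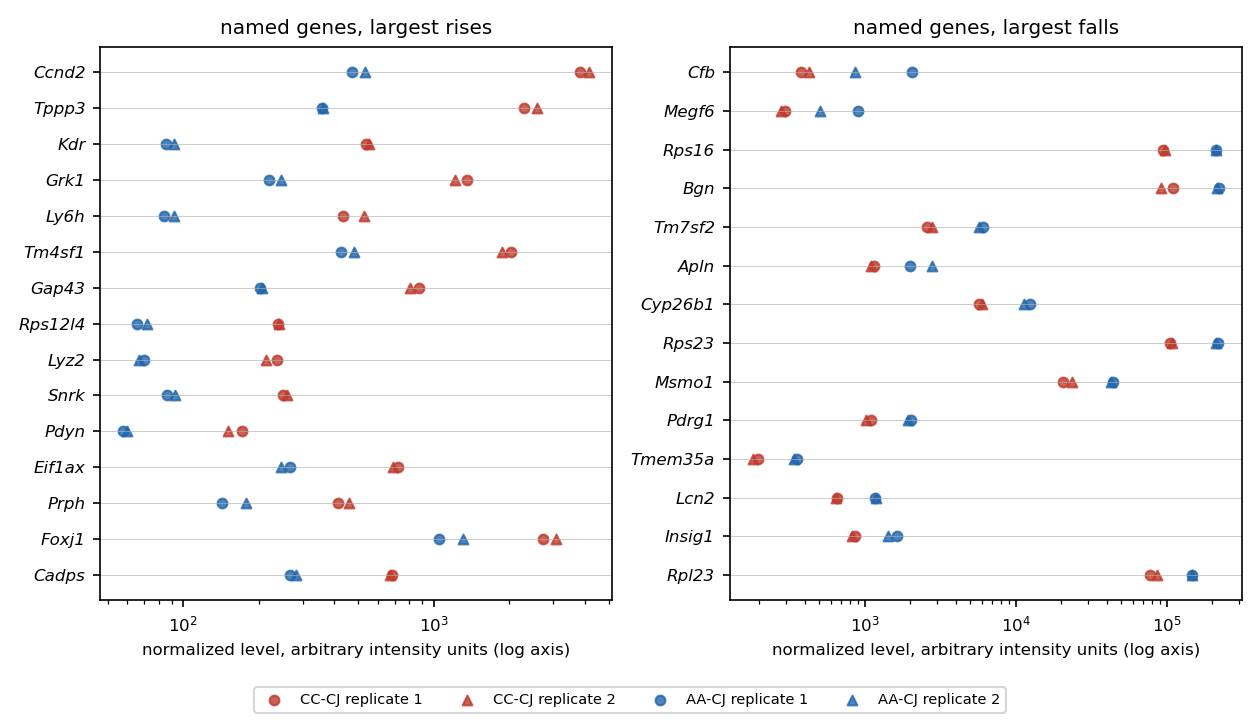
Normalized level (arbitrary units, log axis) on each array of CC-CJ (red) and AA-CJ (blue) for the 15 named genes with the largest rises (left) and 14 with the largest falls (right). The CC-CJ points of Ccnd2 (3820 and 4169) lie above its AA-CJ points (474 and 532), and those of Cfb (378 and 430) lie below its AA-CJ points (2061 and 864).

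A second set of large rises was in RNA that the jet lowered. Gap43, a protein of growth cones, had levels of 870 and 805 in CC-CJ and of 203 and 207 in AA-CJ, a 4.08-fold difference (M 2.03, SE 0.09, adjusted p = 0.000358), and its M against CC was -2.76. Cadps, which primes dense core vesicles for release, had 680 and 669 against 266 and 283 (M 1.30), with -1.69 against CC. Dcx, a microtubule-binding protein of young neurons, had 155 and 120 against 70.6 and 79.2, where AA-CJ was not well above background. Its rise was thus at least 1.83-fold, and it fell most of these genes with the jet, with -3.70. Grk1, known as the rhodopsin kinase of photoreceptors, had 1358 and 1213 against 221 and 246 (M 2.46), with -0.97 against CC. Ly6h, a membrane-anchored protein of the brain, had 433 and 528 against 83.9 and 91.7 (M 2.45), with -1.09. The kinase gene Snrk (M 1.54 and 1.47 on the arrays) and the translation initiation factor gene Eif1ax (1.43 and 1.49) also rose, with -0.98 and -0.58 against CC. Of these genes Dcx did not pass without replicate 1 (adjusted p = 0.101), where the others passed with either array left out.

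Neuron markers were still seen in CC-CJ beside these genes. Of 27 neuron marker genes tested, 4 rose and 0 fell, and these were Gap43, Dcx, Mapt and Elavl4. All 4 fell with the jet, as did 15 of the 27, where 2.24% of all genes fell with it and 1.87% rose. Dcx and Elavl4 were not well above background in AA-CJ and entered the test through RNA of the co-cultures, which favours rises. Where both channels had to be well above background, 2 of 16 rose. The median M of the list was 0.12, with 17 genes above 0 on both arrays and 4 below, against 6257 and 7730 of the 21328 genes tested. Mapt, the microtubule protein tau, had 181 and 185 in CC-CJ against 112 and 126 in AA-CJ (M 0.63, adjusted p = 0.0376), and -2.87 against CC. Elavl4, a neuronal RNA-binding protein, was not well above background in AA-CJ and rose at least 1.46-fold, with -2.82 against CC. Other neuron genes differed little from AA-CJ, with an M of 0.11 for Tubb3, 0.09 for Snap25 and 0.13 for Map2, none of which passed. The levels of the list summed to 19210 and 18000 for CC-CJ, and to 17850 and 18430 for AA-CJ. Slc17a7, Gad1 and Syp, which define excitatory transmission, inhibitory transmission and synaptic vesicles, were below the background filter in all 3 RNAs. As the neurons were of mouse and the probes of rat, a low signal does not show that neuronal RNA was absent. Mapt did not pass without replicate 1 (adjusted p = 0.161) or without replicate 2 (0.0717), nor did Elavl4 without replicate 1 (0.219), and 4 genes of the list rose in the fit of all arrays but 1 without replicate 1.

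A part of the microglia markers was higher in CC-CJ. Of 15 tested, 5 rose and 0 fell, all 5 of which fell with the jet, and 8 of the 15 fell with it in all. Over all genes 1.87% rose, 1.13% fell and 2.24% fell with the jet. On both arrays 10 of the 15 were above 0 and 1 below, against 6257 and 7730 of all 21328 genes. Members not well above background in AA-CJ entered the test through RNA of the co-cultures, and that filter favours rises. Where both channels had to be well above background, 2 of 7 rose. Lyz2, the lysozyme of myeloid cells, had 237 and 215 in CC-CJ against 70.0 and 66.5 in AA-CJ, where it was not well above background, which is at least 3.31-fold (adjusted p = 0.000773). C1qa, a chain of the complement starter C1q, had 156 and 147 against 65.6 and 67.3, at least 2.27-fold (adjusted p = 0.00276). Trem2, a lipid receptor of microglia, had 170 and 123 against 63.5 and 77.4, at least 2.03-fold. Tyrobp, its signalling adaptor, had an M of 0.77 and the lysosomal protein Laptm5 an M of 0.75. Against CC the M of these genes was -1.23 for Lyz2, -1.06 for C1qa, -1.36 for Trem2, -0.74 for Tyrobp and -1.24 for Laptm5. Microglia genes that did not pass included C1qb (M 0.59, adjusted p = 0.0521), Csf1r (0.07) and Cd68 (-0.08). The defining markers Cx3cr1, Itgam, P2ry12 and Spi1 were below background, as was Mrc1. Summed over the list, levels were 10560 and 10310 for CC-CJ against 9268 and 9899 for AA-CJ. Without replicate 1, only 2 of the 15 rose, and Trem2, Tyrobp and Laptm5 were lost (adjusted p = 0.0867, 0.0637 and 0.128). Spp1, the matrix protein osteopontin that microglia also make, had 1969 and 1452 against 1039 and 840 (M 0.86, adjusted p = 0.0191) and -0.91 against CC, and it did not pass without replicate 1 (0.0977).

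Some genes of motile cilia were higher in CC-CJ. Of the 11 ependymal and cilia markers tested, 4 rose and 0 fell, where 1.87% and 1.13% of all genes did. None of the 11 fell with the jet, and the median M was 0.30. On both arrays 10 were above 0 and 1 below, against 6257 and 7730 of all 21328 genes. Foxj1, the transcription factor that turns on the motile cilium program, had levels of 2724 and 3061 in CC-CJ and of 1047 and 1312 in AA-CJ, which is 2.46-fold (M 1.30, SE 0.09, adjusted p = 0.00193). Dynlrb2, a light chain of the dynein motor, had 158 and 143 against 106 and 103 (M 0.53, adjusted p = 0.0324). Mia, a secreted protein, had 144 and 155 against 94.3 and 94.8 (M 0.66, adjusted p = 0.0211). Tppp3 was the fourth. Spef2, needed for the axoneme, had an M of 0.45 (adjusted p = 0.0525) and Cfap126 of 0.30, and the radial spoke gene Rsph1 had -0.21. Summed over the list, levels were 17370 and 17150 for CC-CJ against 10890 and 12870 for AA-CJ. Relative to all genes Foxj1 was at 0.58 under median centring, against 1.32 with loess. It was weaker under 2 of 16 settings, and its limma adjusted p reached 0.473. Foxj1 and Tppp3 passed with either array left out, whereas Dynlrb2 (adjusted p = 0.153 without replicate 1 and 0.0701 without replicate 2) and Mia (0.0860 and 0.0701) did not, which left 2 of the 11 in each case.

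Cilium genes outside that list were looked at after its values were seen. Among 56 tested genes whose symbols are those of ciliary and flagellar proteins, 5 rose, 0 fell and 0 fell with the jet. Over all genes these shares were 1.87%, 1.13% and 2.24%. The median M of the 56 was 0.03. On both arrays 23 were above 0 and 17 below, against 6257 and 7730 of all 21328 genes. Those of the 56 that rose were Pierce1, Spmip6, Capsl, Cfap144 and Iqcg. Pierce1, a protein inside the tubules of motile cilia, had levels of 417 and 451 in CC-CJ and of 188 and 216 in AA-CJ (M 1.14 and 1.06 on the arrays, adjusted p = 0.00333). Spmip6, of sperm microtubules, had an M of 1.03 (adjusted p = 0.00398). Capsl, Cfap144 and Iqcg were not well above background in AA-CJ and rose at least 1.54-fold, 1.51-fold and 1.46-fold. These genes entered the test through RNA of the co-cultures, and that filter favours rises. Most genes of this wider set did not pass, which also holds for all genes tested.

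The VEGF receptor and the peptide apelin moved in opposite directions. Of 21 genes of VEGF, apelin and the hypoxia response tested, 1 rose (Kdr) and 1 fell (Apln), and the median M was -0.03. Apln, which encodes the secreted ligand apelin of vessel growth, had levels of 1147 and 1090 in CC-CJ and of 1985 and 2804 in AA-CJ (M -1.08, SE 0.14, adjusted p = 0.0180), with -0.38 against CC. Both of its probes were below 0, at -1.31 and -0.84, and they lie on chromosome X of rn4 from 134387384 to 134387443 and from 134389049 to 134389108. Kdr was the only gene among the 8 endothelial markers tested that rose, and none fell. Cdh5, the cadherin of endothelial junctions, had an M of 0.25 (adjusted p = 0.126) and Vwf, a clotting factor of endothelium, of -0.03. A further 11 endothelial markers were below background, among them Pecam1, Tek, Tie1, Flt1 and Cldn5. The levels of the 7 genes other than Kdr summed to 1334 and 1314 for CC-CJ against 1322 and 1303 for AA-CJ.

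Promoter sequences are shown for a gene of each of these groups, the receptor Kdr, the dynein chain Dynlrb2 and the ligand Apln, and for Cyp26b1, which fell and is described further on. Each is the 250 bases before the start of transcription on GRCr8, from RefSeq, written 5′ to 3′ on the strand of the gene. Capitals mark matches on either strand to the motif letters searched.
Kdr: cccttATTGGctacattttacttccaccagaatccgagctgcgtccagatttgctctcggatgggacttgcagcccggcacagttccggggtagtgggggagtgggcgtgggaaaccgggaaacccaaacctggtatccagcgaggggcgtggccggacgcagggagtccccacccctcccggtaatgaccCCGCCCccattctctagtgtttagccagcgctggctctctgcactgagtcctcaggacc
Dynlrb2: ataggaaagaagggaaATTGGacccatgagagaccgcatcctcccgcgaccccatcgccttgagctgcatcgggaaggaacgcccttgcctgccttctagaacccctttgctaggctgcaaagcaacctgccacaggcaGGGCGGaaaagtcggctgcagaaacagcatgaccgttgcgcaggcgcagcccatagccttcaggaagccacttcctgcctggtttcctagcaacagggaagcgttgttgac
Apln: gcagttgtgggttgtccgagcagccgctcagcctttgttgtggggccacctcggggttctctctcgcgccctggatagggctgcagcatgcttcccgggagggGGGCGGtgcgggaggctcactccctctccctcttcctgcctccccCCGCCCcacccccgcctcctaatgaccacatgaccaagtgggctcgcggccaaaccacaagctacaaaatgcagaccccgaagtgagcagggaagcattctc
Cyp26b1: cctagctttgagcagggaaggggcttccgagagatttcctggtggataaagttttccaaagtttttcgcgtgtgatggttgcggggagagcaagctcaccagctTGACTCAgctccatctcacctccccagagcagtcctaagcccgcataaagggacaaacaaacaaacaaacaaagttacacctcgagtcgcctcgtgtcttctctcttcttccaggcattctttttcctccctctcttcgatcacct
The windows are chr14:32571813-32572062 on the plus strand for Kdr, chr19:61428830-61429079 on the plus strand for Dynlrb2, chrX:132091247-132091496 on the minus strand for Apln and chr4:118616177-118616426 on the minus strand for Cyp26b1. The promoters of Kdr and Dynlrb2 each held 1 NF-Y match, starting 245 and 234 bases before the start, and 1 Sp1 match, at 59 and 111 bases. That of Apln held 2 Sp1 matches at 147 and 102 bases, and that of Cyp26b1 held 1 AP-1 match at 146 bases.

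The motifs were counted over the 300 bases of each promoter in the table, which holds 50 bases after the start, for 137 higher, 78 lower and 8321 tested genes. Both strands were searched. NF-Y (CCAAT) was in 43.8% of the promoters of higher genes, 35.9% of lower genes and 38.2% of all tested genes. Sp1 (GGGCGG) was in 52.6%, 73.1% and 61.8%. AP-1 (TGANTCA) was in 4.38%, 5.13% and 4.75%. The E-box (CACGTG) was in 5.84%, 6.41% and 9.58%, and the cyclic AMP element (TGACGTCA) in 0.73%, 2.56% and 3.14%. The EGR motif (GCGGGGGCG), which can overlap Sp1, was in 4.38%, 3.85% and 5.17%. The interferon-stimulated response element, with any bases allowed in its spacer, was in 3.65%, 2.56% and 2.98%, and the sterol element (TCACNCCAC) in 1.46%, 0.0% and 1.06%. These are descriptions of letters in a short window.

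Cell cycle genes other than the cyclins did not pass. Of 15 D-type cyclins, partners and inhibitors tested, 2 rose (Ccnd2 and Ccnd1) and 0 fell. Ccnd1 had levels of 16620 and 16680 in CC-CJ and of 11060 and 13010 in AA-CJ (M 0.47, SE 0.09, adjusted p = 0.0478). It did not pass without replicate 1 (0.221) or without replicate 2 (0.0617), and relative to the median of all genes it was lower, at -0.60, under median centring in place of loess. Ccnd3, the third D-type cyclin, had an M of 0.09, and the inhibitors Cdkn1a and Cdkn1c had 0.21 and 0.52, none of which passed. Of 28 genes of DNA replication and mitosis, 0 rose and 0 fell, where 1.87% and 1.13% of all genes did. The median M of the 28 was 0.07.

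Of 20 astrocyte identity genes, all of which were measured, 1 rose and 0 fell, where 1.87% and 1.13% of all genes did. At such shares few calls are common in a list of this size. On both arrays 7 of the 20 were above 0 and 3 below, against 6257 and 7730 of all 21328 genes, and the median M was 0.11. The gene that rose was Fabp7, a fatty acid-binding protein of radial glia and young astrocytes, with 48270 and 51080 in CC-CJ against 35750 and 38790 in AA-CJ (M 0.41, 1.33-fold, adjusted p = 0.0478). It did not pass with either array left out (0.190 without replicate 1 and 0.125 without replicate 2). The count of the list was 0 without replicate 1, 3 without replicate 2 and 4 without either array against CC. Fabp7 lay at -0.86 relative to all genes under median centring. The intermediate filament gene Gfap had 1109 and 1152 against 1595 and 1144 (M -0.26, adjusted p = 0.455), and the levels of the groups overlapped. Aldh1l1 and S100b each had an M of -0.02. The glutamate transporter genes Slc1a3 (M 0.32, adjusted p = 0.277) and Slc1a2 (M 0.58, adjusted p = 0.0847) and the transcription factor gene Nfia (M 0.68, adjusted p = 0.0519) were above 0 without passing.

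Of 19 secreted or surface proteins that act on synapses, 3 rose and 0 fell. On both arrays 8 were below 0 and 5 above, against 7730 and 6257 of all 21328 genes. Thbs4, a thrombospondin, had 2856 and 3345 in CC-CJ against 1617 and 1564 in AA-CJ (M 0.96, adjusted p = 0.00896). Against CC its M was 0.94 (adjusted p = 0.00453), so its CC-CJ signal was above those of both other RNAs. CC-CJ was in Cy3 and shared by both ratios, so dye and condition cannot be told apart here. Sparcl1, known as hevin, which promotes excitatory synapses, had 12290 and 16850 against 7834 and 9052 (M 0.77, adjusted p = 0.0171). Chrdl1, an inhibitor of BMP signals that matures synapses, had 4580 and 6553 against 3300 and 4072 (M 0.58, adjusted p = 0.0413). Other thrombospondins did not pass, with an M of -0.22 for Thbs1 and 0.02 for Thbs2, where the arrays of Thbs2 had opposite signs (-0.57 and 0.62). Without replicate 2 the adjusted p was 0.0542 for Sparcl1 and 0.142 for Chrdl1, and without replicate 1 it was 0.102 for Chrdl1. Relative to all genes Sparcl1 was at -0.26 and Chrdl1 at -0.29 under median centring. There Thbs4 was at 0.21, against 0.97 with loess.

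Lipid carrier genes rose in part. Of 18 genes of apolipoproteins and sterol export, 3 rose and 0 fell, with a median M of -0.03. Apoe, the main lipid carrier that astrocytes secrete, had 113300 and 135200 in CC-CJ against 66210 and 66070 in AA-CJ, which is 1.87-fold (M 0.90, SE 0.09, adjusted p = 0.0101), with 0.08 against CC. Abca1, which pumps cholesterol onto apolipoproteins, had 232 and 227 against 154 and 142 (M 0.63, adjusted p = 0.0293), and Apod had 114 and 130 against 86.0 and 78.5 (M 0.56, adjusted p = 0.0421). Abcg1, a second exporter, had an M of 0.76 that did not pass (adjusted p = 0.0722). Apoe passed with either array left out, but lay at -0.50 relative to all genes under median centring. Abca1 and Apod did not pass without replicate 1 (0.107 and 0.0700) or without replicate 2 (0.0930 and 0.146). The enzymes of cholesterol synthesis moved the other way, with 9 of 20 lower and 0 higher. Of the 20, 0 were lower with Agilent's processed log ratio, 4 with a replicate block, 5 with an offset of 16 and 18 under median centring. The 3 lowest were Tm7sf2, Msmo1 and Dhcr7 (M -1.13, -0.98 and -0.81), of which Msmo1 and Dhcr7 were lost without replicate 1 (0.0671 and 0.107). The list had a median M of -0.82 on replicate 1 and -0.41 on replicate 2, and 1 gene was lower without replicate 1, 12 without replicate 2 and 13 without either array against CC. Of 22 genes of fatty acid synthesis, 1 rose and 1 fell, where 0 fell without replicate 1 and 3 without either array against CC. The lipogenic gene Thrsp had 247 and 292 against 146 and 140 (M 0.91, adjusted p = 0.0138), and Insig1, a brake on SREBP processing, had 858 and 816 against 1635 and 1414 (M -0.86), with all 4 of its probes between -1.12 and -0.58 and an adjusted p of 0.0585 without replicate 1.

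Immediate early genes, which cells switch on within minutes of a stimulus, included 2 that rose. Of 26 tested, these were Egr1 and Fos, 0 fell, 14 were above 0 on both arrays and 4 below, against 6257 and 7730 of all 21328 genes, and the median M was 0.19. Fos had levels of 386 and 291 in CC-CJ and of 173 and 162 in AA-CJ, which is 2.00-fold (M 1.00, SE 0.10, adjusted p = 0.0101). Against CC its M was 0.85 (adjusted p = 0.00881), so the Fos signal was higher after the jet than in the co-culture without it. This ratio too had CC-CJ in Cy3, so the part of the dye cannot be told apart. Egr1 had 2705 and 4230 against 1293 and 1652 (M 1.21, SE 0.20, adjusted p = 0.0356), with 0.66 against CC. Nr4a1 (M 1.03, adjusted p = 0.175) and Egr2 (M 0.86, adjusted p = 0.123) did not pass, and the arrays of Nr4a1 differed, at 0.34 and 1.72. AA-CJ was also given the jet, whereas CC was not. Fos was lost without replicate 1 (0.0538), and Egr1 without replicate 1 (0.102) or replicate 2 (0.109). The count of the list was 0 without replicate 1, 2 without replicate 2 and 6 without either array against CC.

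Adhesion and matrix genes were mixed. Of 25 cadherins and protocadherins and their partners, 2 rose (Pcdh10 and Cdh6) and 0 fell, where 1.87% and 1.13% of all genes did. Cdh6 had 614 and 626 in CC-CJ against 282 and 403 in AA-CJ (M 0.88, adjusted p = 0.0251). Of 17 matrix proteoglycans and related genes, 2 rose and 1 fell, and the rises were 0 without replicate 1, 3 without replicate 2 and 4 without either array against CC. Reck, a membrane inhibitor of matrix proteases, had 1742 and 1560 against 1008 and 933 (M 0.77, adjusted p = 0.0110), and Omd, the proteoglycan osteomodulin, had 6336 and 7021 against 3924 and 5169 (M 0.57, adjusted p = 0.0340). Bgn, the small proteoglycan biglycan, fell, with 109800 and 91230 against 221600 and 217100 (M -1.13, adjusted p = 0.00582), and also fell with the jet (M -1.09 against CC). Of 25 collagens, laminins and integrins, Itga1, a collagen receptor chain, was the only one that passed, with 16990 and 18880 against 8286 and 12710 (M 0.80, adjusted p = 0.0413). Of 18 metalloproteases and inhibitors, Reck rose and Serpine2, an inhibitor of thrombin and plasmin, fell (M -0.65, adjusted p = 0.0460). Cdh6, Reck, Omd and Itga1 were lost without replicate 1 (0.0969, 0.0696, 0.159 and 0.169) and Serpine2 with either array left out (0.120 and 0.152). Bgn had an adjusted p of 0.0540 with the processed values of the authors. Relative to all genes Omd was at -0.34 and Itga1 at -0.27 under median centring. There Reck was at 0.12 and Cdh6 at 0.45, against 0.78 and 0.89 with loess.

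The largest fall was in the complement list, where genes moved both ways. Of 22 complement and acute phase genes tested, 4 rose and 2 fell, where 1.87% and 1.13% of all genes did. The median M of the list was -0.03. Cfb, factor B of the alternative complement pathway, had levels of 378 and 430 in CC-CJ and of 2061 and 864 in AA-CJ, a 3.31-fold fall (M -1.73, SE 0.29, adjusted p = 0.0376), with -0.51 against CC. Its AA-CJ levels differed between the arrays more than its CC-CJ levels did, and rn4 places its probe on chromosome 20 from 4076976 to 4077119. Lcn2, a siderophore-binding protein of the acute phase, had 650 and 643 against 1169 and 1188 (M -0.87, adjusted p = 0.0244), with 0.18 against CC. In the other direction Serpina3n, a serine protease inhibitor raised in reactive astrocytes, had 16130 and 16970 against 11150 and 7919 (M 0.82, adjusted p = 0.0466), and the copper carrier Cp an M of 0.57 (adjusted p = 0.0251). C1qa rose as well. Haptoglobin (Hp) had an M of -0.88 with an adjusted p of 0.0519, and the central component C3 had -0.26, on arrays of opposite sign. Cfb passed with either array left out, but not with an offset of 16 (adjusted p = 0.0502), with no background correction (0.0516) or with Agilent's processed log ratio (0.140). On replicate 2 alone its M of -1.01 lay closer to 0 than those of Apln (-1.36), Bgn (-1.25), Rps16 (-1.12) and Tm7sf2 (-1.03). Serpina3n was lost without replicate 2 (0.142), and Lcn2 and Cp without replicate 1 (0.0977 and 0.123) or replicate 2 (0.0652 and 0.0562). Serpina3n was at -0.23 relative to all genes under median centring.

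Smaller falls were in genes of retinoid, prostaglandin, amino acid and oxidant handling. Cyp26b1, the enzyme that breaks down retinoic acid, had 5681 and 5940 in CC-CJ against 12530 and 11280 in AA-CJ (M -1.03, SE 0.11, adjusted p = 0.0129), with -0.35 against CC. Of 13 retinoid genes tested 1 rose and 1 fell, the latter being Cyp26b1, and the rises were 0 without replicate 1 or replicate 2 and 2 without either array against CC. Of 9 prostaglandin genes, Ptgds, the synthase of prostaglandin D, rose (228 and 300 against 132 and 121, M 1.05, adjusted p = 0.0322) and Ptges, the inducible synthase of prostaglandin E, fell (165 and 140 against 226 and 236, M -0.60, adjusted p = 0.0342), and the rises were 2 without either array against CC. Of 29 genes of amino acid transport and the ATF4 response, 0 rose and 2 fell. On both arrays 15 were below 0 and 3 above, against 7730 and 6257 of all 21328 genes. Slc7a3, a carrier of cationic amino acids, had 961 and 943 against 1590 and 1512 (M -0.70, adjusted p = 0.0165), and Slc7a5, a carrier of large neutral ones, had 160 and 141 against 256 and 251 (M -0.75, adjusted p = 0.0262). The carrier gene Slc7a1 and the synthetase gene Asns did not pass, with an M of -0.01 and -0.23. Sod2, the superoxide dismutase of mitochondria, had 239 and 233 against 398 and 384 (M -0.73, adjusted p = 0.0316) and was the only one of 23 Nrf2 targets and metallothioneins that passed. Cyp26b1 and Slc7a3 were lost without replicate 1 (0.0740 and 0.0872). The others of this paragraph were lost with either array left out, with adjusted p from 0.0538 for Ptgds without replicate 1 to 0.130 for Sod2 without replicate 1.

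Further genes among the lowest had varied roles. Megf6, a secreted protein with EGF-like repeats, had 298 and 279 in CC-CJ against 901 and 507 in AA-CJ (M -1.23, adjusted p = 0.0211) and -0.58 against CC, and was lost without replicate 1 (0.0538). Pdrg1, a gene responsive to DNA damage, had 1104 and 1024 against 2021 and 1932 (M -0.89), and Tmem35a, a chaperone of nicotinic receptors, had 196 and 181 against 354 and 339 (M -0.88) with -1.23 against CC. Psmb9, a subunit of the immunoproteasome, had 3007 and 2878 against 4231 and 4294 (M -0.54, adjusted p = 0.0331), as the only one of 22 interferon response genes that passed, where without either array against CC 2 rose and 3 fell. Pdrg1, Tmem35a and Psmb9 were lost with either array left out (0.0881, 0.115 and 0.119 without replicate 1, and 0.0565, 0.0830 and 0.110 without replicate 2).

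A part of the cytosolic ribosomal protein genes fell. Of 68 tested, 14 fell, 0 rose and 54 did not pass, 53 were below 0 on both arrays and 3 above, against 7730 and 6257 of all 21328 genes, and the median M was -0.26. Summed over the list, levels were 2965000 and 3029000 for CC-CJ against 4150000 and 4066000 for AA-CJ. Rps16, a protein of the small subunit, had 95410 and 98110 against 213400 and 212800 (M -1.14, SE 0.09, adjusted p = 0.00333). Against CC the M of Rps16 and of Rps23 was -0.76 each, and both fell with the jet. Rps23 had 105800 and 108200 against 218600 and 213800 (M -1.01), Rpl23 had 77700 and 86290 against 147400 and 146400 (M -0.84) and Rps6 had 110500 and 111800 against 198100 and 195800 (M -0.83). Of the 14 lower genes 7 also fell with the jet, at mean levels from 114500 to 161600. The level moved with these calls. Among the 18 genes of any kind at least as bright as 114500, the level of the dimmest ribosomal gene that fell with the jet, 13 fell, 0 rose and 11 fell with the jet. That limit was set after the values were seen, and it takes in those 7 genes by its choice. Outside the ribosomal list 10 genes were as bright, of which 5 fell and 4 fell with the jet, with a median M of -0.69. Across the 68 ribosomal genes Pearson's r of M with log2 level was -0.423, and in CC-CJ against CC it was -0.569, whereas across 21327 genes it was -0.03. Of the 68, 27 fell with a prior that follows intensity, 19 without either array against CC and 68 under median centring. With a replicate block 5 fell, and with Agilent's processed log ratio 0. The part of brightness in these falls was not tested. Only 3 of the 68 fell with the processed values of the authors and 2 without replicate 1, against 8 without replicate 2, where Rps16 and Rps23 passed in each of these fits. Rpl23, Rps6 and Rpl35 were lost without replicate 1 (adjusted p = 0.0635, 0.0538 and 0.0740), and Rps6 and Rpl35 with the values of the authors (0.0864 and 0.0760).

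Features without a gene symbol that the files describe as similar to a ribosomal protein gave both directions. Of 256 tested, 24 fell and 8 rose, where 1.13% and 1.87% of all genes did, and the median M was -0.20. On both arrays 172 were below 0 and 45 above, against 7730 and 6257 of all 21328 genes. The 24 that fell had mean levels from 183 to 114000 with a median of 3025, against a median of 116200 for the ribosomal genes that fell, and 1 of them fell with the jet. The 8 that rose had a median M of 1.26 at levels from 164 to 1158, and 7 of them fell with the jet. Among them a feature similar to L19 had an M of 2.46, one similar to S2 rose at least 5.15-fold and one similar to L17 had an M of 1.86, with -0.92, -1.01 and -1.26 against CC. These 3 were chosen after their values were seen. Rps12l4, a gene similar to ribosomal protein S12, likewise had 239 and 242 against 65.2 and 72.1 (M 1.81) and -0.82 against CC. The parent genes did not rise, with an M of -0.36 for Rpl19, -0.18 for Rps2, -0.50 for Rpl17 and -0.48 for Rps12, of which Rps12 fell (adjusted p = 0.0417). Such copies share sequence with their parents, and which RNA a probe bound is uncertain.

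**Figure D4:**
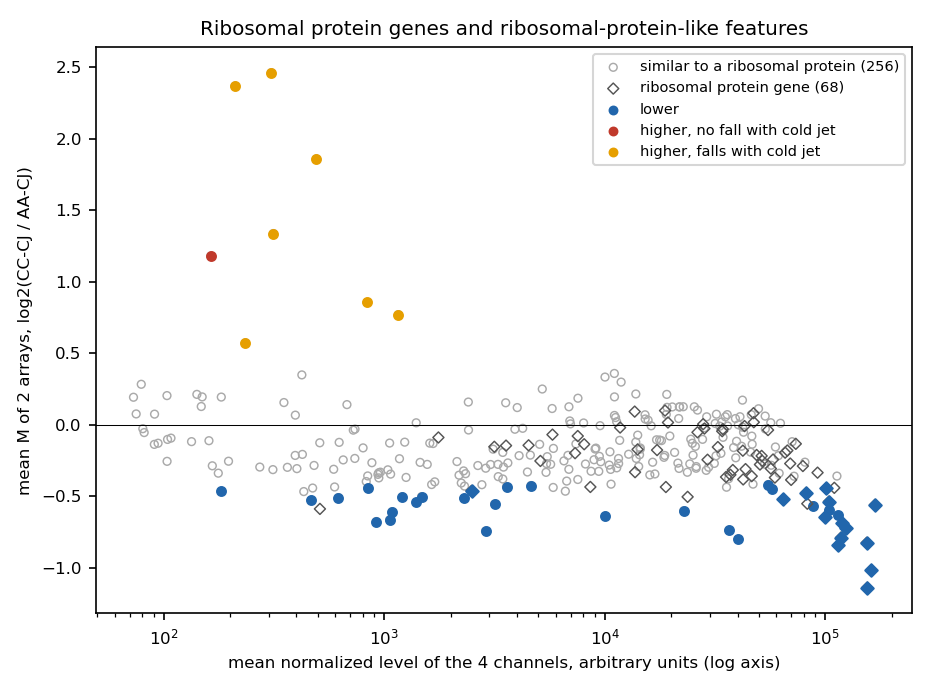
M (log2 of CC-CJ over AA-CJ) against mean normalized level (arbitrary units, log axis) for the 68 ribosomal protein genes (diamonds) and the 256 features described as similar to one (circles), filled where they passed. The ribosomal genes that fell lie mostly at the bright end, with a median level of 116200, and the 8 features that rose lie between 164 and 1158.

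The remaining lists held few calls or none. No gene passed among 27 of BMP, TGF-beta and Id signalling, 18 ER chaperones, 14 of the Notch pathway, 25 contractile genes, 24 of glycolysis and lactate, 36 of the respiratory chain, 26 growth factors or 11 of gap junctions, potassium and water. Without either array against CC, 2 ER chaperones, 1 contractile gene and 1 gene of the respiratory chain fell, and without replicate 1 a gene of BMP signalling and one of gap junctions rose. Of 17 heat shock and cold-inducible genes 1 rose, or 2 with 1 that fell without either array against CC. It was the chaperone Hsp90aa1 (2581 and 2746 against 1749 and 1981, M 0.52, adjusted p = 0.0308), which was lost with either array left out (0.148 and 0.0701) and was at -0.21 relative to all genes under median centring. Of 15 chemokines and cytokines only Spp1 passed. Of 11 genes of glutamate and GABA handling 1 rose, which is not named here, and 0 fell. That count was 2 without either array against CC and 0 with an offset of 16. No gene passed among 13 oligodendrocyte lineage markers, whose levels summed to 3973 and 3882 for CC-CJ against 3989 and 4348 for AA-CJ, nor among 13 mural and fibroblast markers, at 105300 and 101300 against 97620 and 97120. A count of 0 at 2 arrays does not show that these genes were alike in both groups.

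**Figure D5:**
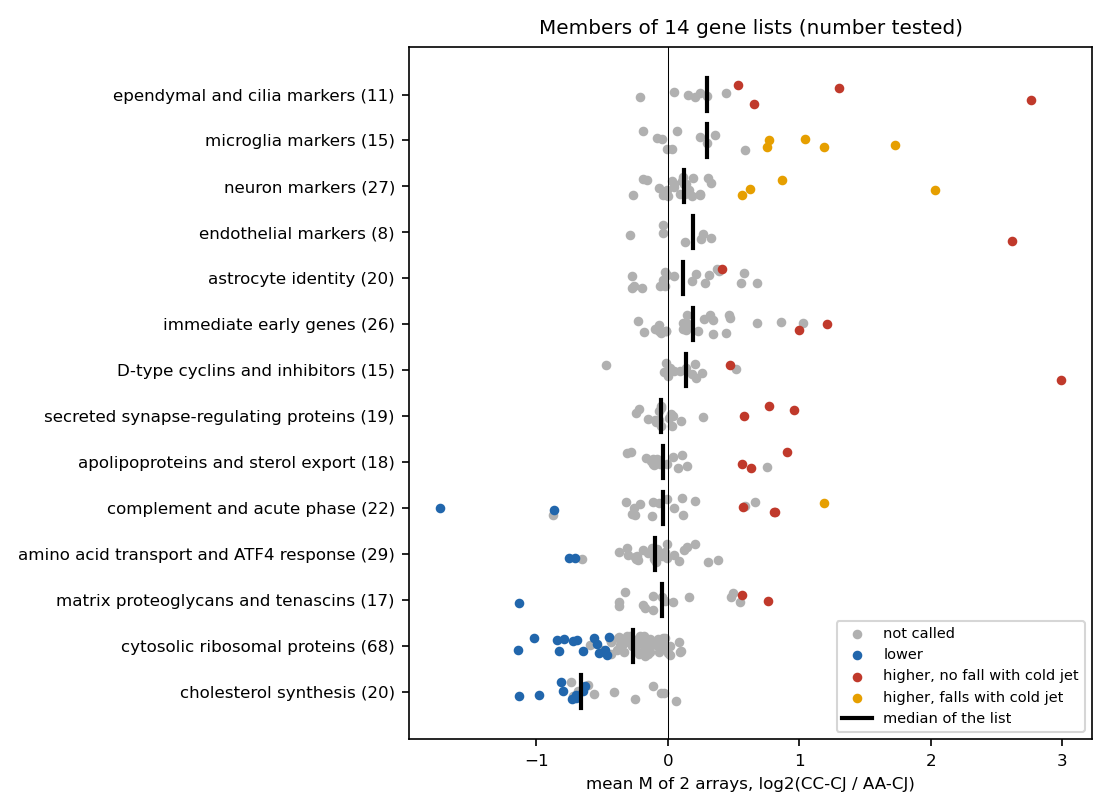
Mean M of the arrays (log2 of CC-CJ over AA-CJ, horizontal axis) of every tested gene of 14 lists, with genes that passed coloured and the median of each list as a bar. The list of cholesterol synthesis has its median farthest to the left at -0.66, and those of ependymal and cilia markers and of microglia lie to the right at 0.30 each.

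Of 2955 genes measured by more than one probe, 1179 had probes on both sides of 0 and 17 had probes that differed by more than 1 in M, with a median difference of 0.16 between the highest and lowest probe. Of the 56 that passed, which were chosen on the mean of their probes, 1 had probes on both sides of 0 and 9 had probes that differed by more than 1.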

How the data were processed

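Total RNA was labelled with oligo-dT primers and hybridised in 2 colours. The authors deposited, for each array, spot intensities from Agilent Feature Extraction 9.5.1.1 and Agilent's log10 ratio, and a series table of processed values. Against the scanner values those deposited values were log2 of Cy5 over Cy3 (Pearson's r across spots 0.953 and 0.948, ratio of SDs 1.12 and 1.17, medians 0.00847 and 0.0043; for the CC arrays r 0.938 and 0.906, ratios 1.38 and 1.04, medians -0.0247 and -0.0141). The exact centring of the processed values stays unknown, and they were turned before use. Per the methods, the authors made them by local intensity-dependent normalization (OLIN, OSLIN).

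Here mean signals were corrected by normexp (offset 50) and normalized by loess (span 0.3) in R 4.3.3 with limma 3.58.1, and locfit 1.5.9.12 for the local regression alternative. Spots marked as outliers were left out and spots of a probe averaged. A probe stayed in where at least 1 RNA was well above background on all its arrays (24881 of 41012). The share of probes well above background was 54.3% and 54.5% for CC-CJ, and 58.6% and 56.3% for AA-CJ. Gene values were means over kept probes. One coefficient per comparison was fitted over the 4 arrays, and p-values were adjusted over all genes. At an unadjusted p under 0.05, 5576 probes and 4818 genes differed. A gene fell with the jet where it passed and M was below 0 in CC-CJ versus CC. Levels came from Aquantile normalization after loess. Bounds of fold set the mean of the brighter group against, per array, the higher of the dimmest signal well above background and the dim gene's own signal, so a bound equals the measured fold where its own signal was the higher on both arrays. The fit was tested on simulated data.

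Of 41012 probes, 10835 were named by RefSeq accession, 93 by another accession of the probe, 5183 by a current and 3471 by an older symbol, and 21430 kept the name of the file. Named genes were the 15 highest and 15 lowest M among genes with a symbol that passed, had 1 sign on both arrays and were well above background where higher, plus up to 3 passing members per direction of each list, or up to 2 defining members where none passed; 4 genes that this rule chose are not reported here. The members and lists were chosen with earlier results of these data known. Replicate numbers did not pair the arrays by any label. Promoters came from RefSeq on GRCr8. The alternatives tried were other background corrections, normalizations, filters, priors and value sources, the brightest probe of a gene, a replicate block, the selection by 2 SD in the methods, and leaving out each array.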

Additional observations from a re-analysis of the deposited data

How the results depend on the processing

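The main counts were 514 higher and 283 lower probes, 399 higher and 242 lower genes, and 75 higher genes that fell with the jet. They stayed within 1.5 times with no background correction, no filter on dim probes, an intensity-dependent prior and the processed values of the authors. The brightest probe of a gene was run for the counts of genes, and the selection by 2 SD for the counts of probes and the fall with the jet, and these too stayed within 1.5 times. In the same order of counts, an offset of 16 gave 326, 92, 253 and 73. Local regression on intensity and spot location gave 812, 548, 635 and 446. Agilent's processed log ratio gave 76, 12, 68, 9 and 13. Median centring gave 795, 14587, 704, 12497 and 232, with the median M of all genes moved to -0.48. Requiring both channels to be well above background left 48 genes falling with the jet, and counting M below 0 on both CC arrays gave 204. A fit without the CC arrays gave 597 lower probes and 497 lower genes. In each case the cause was not tested.

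Leaving out 1 array gave 140 to 725 higher probes, 49 to 597 lower probes, 82 to 583 higher genes, 22 to 497 lower genes and 32 to 73 higher genes falling with the jet. With 1 array of CC-CJ against AA-CJ left, its spread is assumed to be that of the CC arrays. The lowest counts were those without CC-CJ versus AA-CJ replicate 1, where 71 of the 82 higher and 12 of the 22 lower genes were among those of all arrays.

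With a replicate block the counts were 239, 81, 123, 29 and 33, and 29 of the 80 named genes and features did not pass. The replicate numbers are shared without a label that pairs the arrays, and arrays of the same number correlated at -0.112 in their deviations. A block with the numbers crossed, chosen after seeing the data, gave 821, 712, 775 and 716.

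Relative to the median of all genes, 9 named genes turned below 0 under median centring, with an M of -0.50 for Apoe, -0.23 for Serpina3n, -0.27 for Itga1, -0.26 for Sparcl1, -0.29 for Chrdl1, -0.34 for Omd, -0.21 for Hsp90aa1, -0.60 for Ccnd1 and -0.86 for Fabp7. No other named gene turned under any setting. Some stayed above 0 but moved toward it under median centring, among them Cp (0.08), Spp1 (0.20) and Egr1 (0.46). With loess these were at 0.59, 0.87 and 1.23. The medians of the lists of ribosomal, cholesterol, cilia, microglia, neuron and immediate early genes, relative to all genes, had 1 sign under every setting, while those of D-type cyclins and astrocyte identity turned below 0 under median centring. Signal over background limits the genes given only by a bound.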

Other observations

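Some of the largest changes were in features outside the named genes, and those below were picked once their values were known. A feature without a gene symbol rose that the files describe as similar to S-phase kinase-associated protein 1A, a part of the SCF ubiquitin ligase. It was not well above background in AA-CJ, so the difference was at least 7.76-fold (limma adjusted p = 0.000181), and its M against CC was -0.32. Skp1 itself had an M of 0.34 and 0.39 and did not pass (adjusted p = 0.0768).

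A further pair of genes, Npy and Nppc, passed in the direction of higher levels in CC-CJ. Npy, which encodes neuropeptide Y, had an M of 1.40 and 1.16 on the 2 arrays (mean 1.28, adjusted p = 0.00290), with -0.49 against CC. Nppc, which encodes C-type natriuretic peptide, had 1.19 and 1.07 (mean 1.13, adjusted p = 0.00271), with -0.12 against CC. Both passed with either array left out.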
